A study of Homo sapiens with 6 samples.

Results

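The HOX genes were taken as every gene symbol on the array that reads HOX, a cluster letter from A to D and a number. This rule found 35 genes on 36 probe sets, of 81496 gene symbols and 135750 transcript probe sets in all. For HOXD3, the one gene with more than 1 probe set, the probe set with the highest mean was used. HOXA9, HOXB4, HOXC4 and HOXC5 were not matched to a row and are not analysed here, so 35 of the 39 human HOX genes listed by RefSeq are described. The members comprised 10 HOXA genes on chromosome 7, 9 HOXB genes on chromosome 17, 7 HOXC genes on chromosome 12 and 9 HOXD genes on chromosome 2.

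HOX genes encode homeodomain transcription factors that give cells their position along the axis of the body. Their order in each cluster follows the order in which they are used along the embryo, from the anterior genes at one end to the posterior genes at the other, and adult epithelia and fibroblasts keep a combination of active HOX genes that reflects where in the body they came from. Trithorax proteins such as the MLL methyltransferases keep active HOX genes on, Polycomb proteins keep the others silent, and HOX proteins bind DNA together with TALE cofactors of the PBX and MEIS families. The genes are numbered in 13 paralogue groups, so that genes of one number in different clusters descend from one ancestral gene.

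The arrays compared MCF10.AT1 with MCF10.AT1-R. MCF10.AT1 is a preneoplastic breast epithelial line of the MCF10A series that carries an oncogenic HRAS transgene; its arrays are labelled untreated and fluvastatin sensitive, with breast cancer as the cell type. MCF10.AT1-R was selected from it in fluvastatin, a statin that inhibits HMG-CoA reductase, at doses raised from 1 to 20 µM, and carries the same transgene. It is 1 derived line, so differences between the lines belong to this pair, and whether drug was present at harvest is not given clearly, since the same treatment text stands with both lines. Total RNA was hybridised to Clariom D arrays, 3 per line, labelled as biological replicates. The arrays A01, A02 and A03 hold MCF10.AT1 and B02, B03 and B04 hold MCF10.AT1-R. A03, an outlier that the study removed, is shown apart, and the lines were compared over the other 5 arrays. All values are log2 expression values from the RMA method, for which the number of arrays limits the precision. A difference of 1 is a 2-fold change.

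The labelled cell type was checked against markers. Of 7 basal breast epithelial markers, 7 were above the negative controls on all 5 arrays, and of 6 luminal markers 5 were, with ESR1 above them on 2 arrays. The defining leukocyte marker PTPRC, the endothelial marker KDR and the fibroblast markers LUM and PDGFRB were above the controls on none. The 95th percentile of the 612 negative control probe sets, which set this limit, ran from 2.88 to 3.14 over the 5 arrays. It is a low limit: CD3E, a gene of T lymphocytes, also read above it on all 5 arrays. A higher limit was therefore added after the data had been seen, the brightest of the 23 background probe sets that match no human transcript and are graded by their G and C bases. It ran from 4.15 to 4.54, and no leukocyte or endothelial marker was above it on all 5 arrays, while 2 of the 7 fibroblast markers, the collagens COL1A1 and COL1A2, were. How many G and C bases the HOX probes hold is not known here.

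The promoters below belong to the HOX genes whose values carry the comparison and for which RefSeq sequences were at hand: HOXA3 and HOXA7, which passed both limits on all 5 arrays, and HOXD1 and HOXD12, which passed the lower limit on all 5 and whose arrays did not overlap between the lines. Each is given 5′ to 3′ on the strand of the gene, from 250 bases before to 50 bases after the transcript start in RefSeq on GRCh38.p14. Capitals mark the CCAAT box, or its reverse complement, bound by the NF-Y factor. HOXA3 lies on the minus strand at chr7:27152534-27152833, HOXA7 on the minus strand at chr7:27156626-27156925, HOXD1 on the plus strand at chr2:176188418-176188717 and HOXD12 on the plus strand at chr2:176099545-176099844.
HOXA3: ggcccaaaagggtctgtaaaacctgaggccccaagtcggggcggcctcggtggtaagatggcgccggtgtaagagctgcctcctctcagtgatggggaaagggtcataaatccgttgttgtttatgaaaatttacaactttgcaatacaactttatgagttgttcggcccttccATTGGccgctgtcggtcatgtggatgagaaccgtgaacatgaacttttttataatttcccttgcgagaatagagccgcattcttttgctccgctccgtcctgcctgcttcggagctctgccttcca
HOXA7: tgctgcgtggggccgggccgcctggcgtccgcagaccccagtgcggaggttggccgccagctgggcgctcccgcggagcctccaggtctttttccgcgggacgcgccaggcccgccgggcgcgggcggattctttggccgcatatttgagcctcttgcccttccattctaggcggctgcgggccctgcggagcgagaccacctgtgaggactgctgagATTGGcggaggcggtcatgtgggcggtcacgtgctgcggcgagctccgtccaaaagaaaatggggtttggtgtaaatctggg
HOXD1: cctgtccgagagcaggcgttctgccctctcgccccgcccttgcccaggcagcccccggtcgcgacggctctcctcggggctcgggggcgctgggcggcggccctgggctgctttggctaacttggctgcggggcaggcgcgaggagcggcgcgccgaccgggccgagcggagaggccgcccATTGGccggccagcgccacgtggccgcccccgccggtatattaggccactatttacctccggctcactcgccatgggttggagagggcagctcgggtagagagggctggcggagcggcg
HOXD12: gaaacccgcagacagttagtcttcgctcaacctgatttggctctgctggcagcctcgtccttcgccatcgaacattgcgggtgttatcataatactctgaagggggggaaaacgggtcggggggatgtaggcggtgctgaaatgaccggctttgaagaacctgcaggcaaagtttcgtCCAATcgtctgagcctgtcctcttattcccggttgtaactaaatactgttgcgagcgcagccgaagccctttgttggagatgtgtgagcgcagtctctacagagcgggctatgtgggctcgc

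The CCAAT box, searched as CCAAT on both strands, was present in each of these promoters. It was found in 14 of the 17 HOX genes with a promoter sequence (82.4%), against 35.7% of 27305 promoters of all genes. HOX promoters were also rich in CG dinucleotides, with a median of 24 in the 300 bases against 14 over all promoters. The motif TGATNNAT, a form of the joint binding site of PBX and HOX proteins, was in 3 of 17 (17.6%) against 7.60%, and GGGCGG, the GC box, was in 10 of 17 (58.8%) against 44.6%. TATAAA was in 3 of 17 (17.6%) against 12.0%, and AGGTCA, a nuclear receptor half-site, was in 0 of 17 against 13.9%. All were searched on both strands, and matches of different motifs may overlap. By signal on the arrays, CCAAT was present in 7 of 8 promoters of genes above the controls on all 5 arrays and in 7 of 9 of the others. A match is a description of these letters and not a site of binding.

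Detection of HOX genes was uneven within each cluster. Of the 35 genes, 16 (45.7%) lay above the negative controls on all 5 arrays, 10 on 1 to 4 arrays and 9 on none, against 29% of all gene symbols above the controls on all 5. By cluster the genes above the controls on all 5 arrays were HOXA3, HOXA5, HOXA6, HOXA7 and HOXA10, then HOXB2, HOXB3, HOXB5 and HOXB7, then HOXC8, HOXC9 and HOXC13, and HOXD1, HOXD3, HOXD11 and HOXD12. A further 4 genes, HOXB1, HOXB6, HOXC6 and HOXD8, were above the controls on every array of 1 line. Of the anterior paralogues, numbered 1 to 3, 5 of 8 were above on all 5 arrays; of the central ones, 4 to 8, 6 of 12; and of the posterior ones, 9 to 13, 5 of 15. The count rested on the limit: at the 99th percentile of the controls it was 4 genes, and above the graded background it was 5 genes (14.3%, against 15.5% of all symbols).

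**Figure D1:**
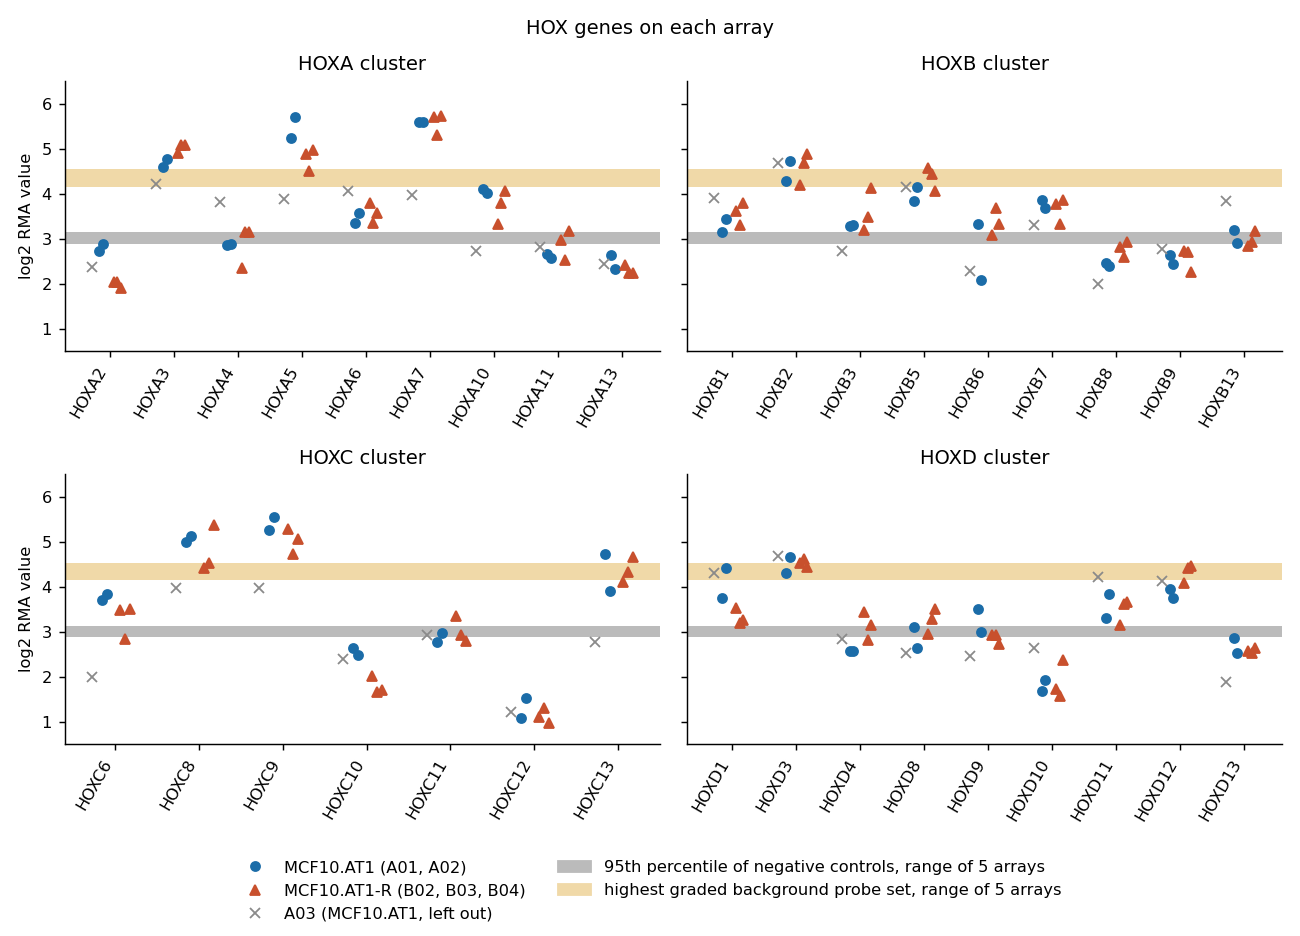
Log2 RMA value of HOX genes (y axis) on the MCF10.AT1 arrays A01 and A02 (circles), the MCF10.AT1-R arrays B02, B03 and B04 (triangles) and A03 (crosses), by cluster and in paralogue order (x axis). The grey band spans the 95th percentile of the negative controls and the yellow band the brightest graded background probe set over the 5 arrays; HOXA3, HOXA5, HOXA7, HOXC8 and HOXC9 passed both on all 5.

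Only HOXA3, HOXA5, HOXA7, HOXC8 and HOXC9 passed both limits on all 5 arrays. They belong to the HOXA and HOXC clusters, and no HOXB or HOXD gene passed both on all 5. HOXB2 passed the higher limit on 4 arrays and fell just short on A01, at 4.27 against 4.32. HOXD3 and HOXC13 passed it on 3 arrays. The share that passed both, 14.3%, was near the 15.5% of all symbols, and the split by cluster was not tested.

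HOXA7, a central gene of the trunk, read 5.59 and 5.59 in MCF10.AT1 and 5.70, 5.31 and 5.72 in MCF10.AT1-R. The arrays of the lines overlapped, and the means of 5.59 ± 0.00 (SD, n = 2) and 5.58 ± 0.23 (SD, n = 3) differed by -0.01 on the log2 scale (95% interval -0.48 to 0.46). HOXA7 varied too little to pass the filter on invariant probe sets, so its interval comes from the limma fit with no filter, in which the adjusted p was 0.996. This interval excluded a 2-fold difference in either direction.

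HOXA5, which patterns the lung and the mammary gland, read 5.24 and 5.70 in MCF10.AT1 and 4.87, 4.51 and 4.97 in MCF10.AT1-R. All MCF10.AT1-R arrays lay below both MCF10.AT1 arrays, and the means were 5.47 ± 0.33 (SD, n = 2) and 4.78 ± 0.24 (SD, n = 3). The difference of -0.69 (95% interval -1.30 to -0.08) did not pass the test over all probe sets (limma, adjusted p = 0.483). On A03, the third MCF10.AT1 array, HOXA5 read 3.88, below every MCF10.AT1-R array.

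HOXA3, needed for the thymus and parathyroid, read 4.59 and 4.76 in MCF10.AT1 and 4.90, 5.08 and 5.09 in MCF10.AT1-R. The arrays did not overlap and the MCF10.AT1-R ones were higher, by 0.35 (95% interval -0.26 to 0.96; limma, adjusted p = 0.830). A03, the outlier set aside, read 4.21, below all 5 arrays. HOXA3 and HOXA5, both in the HOXA cluster, thus differed in opposite directions, and neither passed the test.

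HOXC8, a central gene of the trunk, read 5.00 and 5.13 in MCF10.AT1 and 4.42, 4.53 and 5.37 in MCF10.AT1-R, so that array B04 lay above both MCF10.AT1 arrays and the other two lay below them. Its difference was -0.29 (95% interval -0.90 to 0.32). The adjacent HOXC9 read 5.26 and 5.55 in MCF10.AT1 and 5.28, 4.74 and 5.07 in MCF10.AT1-R, with a difference of -0.38 (95% interval -0.99 to 0.23). Both sets of arrays overlapped, and the adjusted p from limma was 0.839 for HOXC8 and 0.823 for HOXC9.

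In the comparison of the lines, no HOX gene passed the threshold of FDR 5%. The fit called 1.2% of the 51457 probe sets tested (0.758% higher and 0.447% lower in MCF10.AT1-R). Of the 28 HOX genes that entered it 0 were called, and the 7 removed by the filter on low and invariant probe sets, HOXA7, HOXA13, HOXB13, HOXC12, HOXD3, HOXD10 and HOXD13, were not called in the fit without it, which called 0.13% of probe sets. The smallest adjusted p from limma was 0.293, for HOXA2. At an unadjusted p under 0.05 there were 5 of 28 genes (17.9%), HOXA2, HOXA5, HOXB6, HOXC10 and HOXD1, against 8.26% of all probe sets tested. In the fit with no filter 5 of the 35 were under it in limma, against 6.7% of probe sets, with HOXD4 in place of HOXB6. The count of calls was 0 in each of the 16 alternative fits, where the number under an unadjusted 0.05 ran from 1 to 6, and at FDR 10% in the fit described here.

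The differences were small. They ran from -0.81 for HOXA2 to 0.67 for HOXB6, with a median of 0.01, and 18 means were higher and 17 lower in MCF10.AT1-R. None of the 35 reached a 2-fold difference, against 0.888% of all gene symbols. For 26 genes the 95% interval excluded a 2-fold difference in both directions. Except for genes removed by the filter, these intervals use the SD of 0.34 common to all probe sets. They do not follow the gene's own spread: HOXC8 is among the 26 with an SD of 0.52 in MCF10.AT1-R. Of the 26, 13 were above the controls on all 5 arrays, 6 on 1 to 4 arrays and 7 on none. For readings at the level of the background, such an interval describes the readings and not the amount of RNA. The interval did not exclude a 2-fold difference for HOXA2, HOXA5, HOXB6, HOXC6, HOXC10, HOXD1, HOXD4, HOXD9 and HOXD12. The median size without regard to sign was 0.29, against 0.18 over all symbols.

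**Figure D2:**
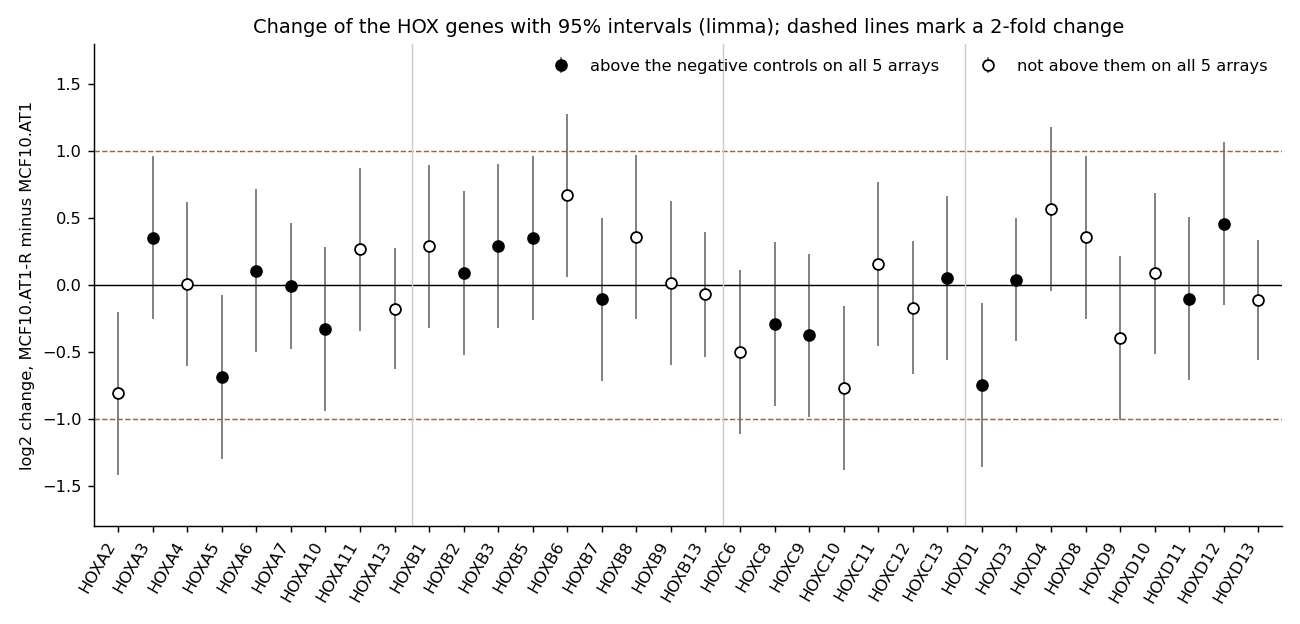
Log2 difference of HOX genes, MCF10.AT1-R minus MCF10.AT1 (y axis), in cluster and paralogue order (x axis), with 95% intervals from limma; dashed lines mark a 2-fold difference and filled circles genes above the negative controls on all 5 arrays. All points lie between -0.81 and 0.67.

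By cluster, the median difference was -0.06 for HOXA, 0.29 for HOXB, -0.29 for HOXC and 0.04 for HOXD. Of the 9 HOXB genes 7 had a higher mean in MCF10.AT1-R, and of the 7 HOXC genes 5 had a lower one; the difference between clusters was not tested. With each array left out in turn the HOXB median stayed between 0.14 and 0.30 and the HOXC median between -0.40 and -0.15. With A03 counted as MCF10.AT1 they were 0.08 and 0.09, and with values under the controls raised to their percentile they were 0.09 and 0.

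For 10 genes the values of one line all lay on one side of the other's. HOXA3, HOXB8, HOXD4 and HOXD12 were higher in MCF10.AT1-R on every array (11.4% of the 35, against 12.8% of all symbols), and HOXA2, HOXA5, HOXC6, HOXC10, HOXD1 and HOXD9 were lower (17.1%, against 11.9%). These shares lie near those of all genes. The shares of all genes under other sets of arrays are not given here, so the counts that follow cannot be set against them. With A03 counted as MCF10.AT1, 2 genes were higher (HOXA3 and HOXB8) and 3 lower (HOXA2, HOXC10 and HOXD1). Leaving out A01 gave 8 higher and 10 lower, leaving out A02 gave 9 and 11, leaving out B02 gave 8 and 8 and leaving out B03 gave 7 and 7; fewer arrays separate more often by construction.

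HOXD1, an anterior gene with a role in sensory neurons, was the gene above the controls on all 5 arrays with the largest difference. It read 3.74 and 4.43 in MCF10.AT1 and 3.53, 3.21 and 3.27 in MCF10.AT1-R, with means of 4.08 ± 0.48 (SD, n = 2) and 3.34 ± 0.17 (SD, n = 3). Every MCF10.AT1-R array was lower. A03 read 4.31, and as the outlier set aside it is not counted as a further MCF10.AT1 replicate. The difference of -0.75 (95% interval -1.36 to -0.14) had an adjusted p of 0.384 in limma. None of the 5 arrays put HOXD1 above the graded background.

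HOXD12, a posterior gene of the limb, read 3.95 and 3.76 in MCF10.AT1 and 4.08, 4.41 and 4.45 in MCF10.AT1-R. The MCF10.AT1-R arrays were higher, by 0.46 (95% interval -0.15 to 1.07; limma, adjusted p = 0.777), and A03 read 4.14, among them. Its neighbour HOXD11, which shapes the forearm and kidney, read 3.31 and 3.85 against 3.15, 3.61 and 3.67 and overlapped between the lines. HOXD3, an anterior gene, read 4.30 and 4.67 against 4.52, 4.61 and 4.43, a difference of 0.04 (95% interval -0.42 to 0.50). HOXD8 read 3.12 and 2.65 against 2.94, 3.28 and 3.50, above the controls on every MCF10.AT1-R array and on neither MCF10.AT1 array. Its A01 value was just short of the limit of that array (3.14), and its B02 value just above that of B02 (2.88). The lines overlapped for HOXD3 and HOXD8.

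The remaining HOXA genes above the controls on all 5 arrays were HOXA6 and HOXA10. HOXA10, which patterns the uterus, read 4.11 and 4.02 in MCF10.AT1 and 3.33, 3.80 and 4.07 in MCF10.AT1-R, a difference of -0.33 (95% interval -0.94 to 0.28). HOXA6 read 3.34 and 3.58 against 3.79, 3.34 and 3.56. Arrays of the lines overlapped for both genes.

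In the HOXB cluster, HOXB2 and HOXB3, which pattern the hindbrain, lay above the controls on all 5 arrays. HOXB2 read 4.27 and 4.72 in MCF10.AT1 and 4.19, 4.68 and 4.88 in MCF10.AT1-R, and HOXB3 read 3.29 and 3.31 against 3.19, 3.47 and 4.12. Both overlapped, with B04 the highest array for each. HOXB5 read 3.84 and 4.15 against 4.56, 4.44 and 4.05, and its difference of 0.35 had a 95% interval of -0.26 to 0.96. HOXB7, which has been studied as a driver in breast tumours, read 3.85 and 3.68 against 3.77, 3.33 and 3.86, a difference of -0.11 (95% interval -0.72 to 0.50). HOXB1, the most anterior gene of the cluster, read 3.13 and 3.42 against 3.62, 3.30 and 3.79, just short of the controls on A01.

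HOXB6 had the largest positive difference, and it rested on 1 array. It read 3.31 and 2.07 in MCF10.AT1 and 3.08, 3.68 and 3.32 in MCF10.AT1-R, so that A02 alone lay below the controls. The difference was 0.67 (95% interval 0.06 to 1.28, limma, adjusted p = 0.509), and it was 0.05 without A02 and 1.29 without A01. This interval uses the SD common to all probe sets in the fit, and not the SD of HOXB6, which was 0.88 in MCF10.AT1. In the fit with no filter its unadjusted p from limma was 0.094.

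In the HOXC cluster, HOXC6 read 3.72 and 3.84 in MCF10.AT1 and 3.49, 2.83 and 3.52 in MCF10.AT1-R, lower on every MCF10.AT1-R array by a mean of 0.50 on the log2 scale, which did not pass the test (limma, adjusted p = 0.740). A03 read 2.01, below all of them. HOXC13, which drives hair and nail keratins, read 4.73 and 3.91 against 4.11, 4.33 and 4.66, and the 2 MCF10.AT1 arrays enclosed all 3 MCF10.AT1-R arrays.

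Both of the largest negative differences lay within the negative controls. HOXA2, which acts in the hindbrain and the neural crest, read 2.71 and 2.88 in MCF10.AT1 and 2.03, 2.03 and 1.89 in MCF10.AT1-R, and HOXC10 read 2.64 and 2.48 against 2.02, 1.66 and 1.70. Neither was above the controls on any of the 5 arrays, so their differences of -0.81 and -0.77 were between readings at the level of the background. HOXA13, HOXB8, HOXB9, HOXC12, HOXD10 and HOXD13 were also among the genes above the controls on none. HOXA4, HOXA11, HOXB13, HOXC11, HOXD4 and HOXD9 were above them on 1 or 2 arrays, and the highest of these readings was 3.51, for HOXD9 on A01.

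While HOX genes did not pass the test, most of the listed epithelial keratins did, though KRT18 and KRT10 did not. Of the 7 basal markers 6 were called higher in MCF10.AT1-R, against 0.758% of all probe sets tested. Among them were KRT17, higher by 4.08, KRT14 by 2.37 and TP63, the transcription factor of basal epithelia, by 1.74. ITGB4, not called, was also higher on every MCF10.AT1-R array, by 0.93 (limma, adjusted p = 0.140). The summed level of the 7 was 48.4 to 48.8 in MCF10.AT1 and 62.4 to 63.3 in MCF10.AT1-R. Of the 6 luminal markers KRT19 and KRT8 were called higher (sums 38.5 to 39.2 and 43.5 to 44.8). KRT18, EPCAM and GATA3 were higher on every MCF10.AT1-R array but not called, and ESR1 overlapped with a lower mean. Of the 6 markers of cornifying keratinocytes 3 were called higher (sums 19.0 to 19.3 and 24.0 to 26.1), with FLG above the controls on no array. The share of all probe sets tested is the 0.758% given above. Of the 7 fibroblast markers DCN, a matrix proteoglycan, was called lower, by 2.15 (sums 30.2 to 30.7 and 27.6 to 28.7). Over all probe sets tested, 0.447% were called lower. PECAM1 of the 4 endothelial markers (sums 13.4 to 13.8 and 11.6 to 12.7) was also called lower, by 1.12. So was CD14 of the 5 leukocyte markers (sums 16.9 to 18.7 and 17.3 to 17.9), by 1.12. The part of these shifts in the HOX values was not tested, and fewer cells of a type cannot be told apart from less RNA per cell.

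Genes that act with or on HOX genes also gave no call. Among 11 TALE cofactors, 9 lay above the controls on all 5 arrays and 8 also above the graded background. The median difference was 0.06, and 0 were called, against 1.2% of all probe sets tested. Of the 6 that entered the fit, 1 had an unadjusted p under 0.05 in limma, against 8.26%. The smallest adjusted p from limma was 0.346, for TGIF1, a repressor of this family. TGIF1 read 7.19 and 7.23 in MCF10.AT1 and 7.86, 8.01 and 8.08 in MCF10.AT1-R. MEIS1 had the lowest difference, at -0.45, and was above the controls on 3 arrays.

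Of 23 Polycomb genes 22 were matched, BMI1 not, and 21 of them lay above the controls on all 5 arrays. Their median difference was -0.14, with 17 means lower in MCF10.AT1-R. Arrays did not overlap for 9 that were lower (40.9%, against 11.9% of all symbols and 16.1% of those above the controls on all 5 arrays) and 1 that was higher (4.55%, against 12.8% and 16.9%). The largest difference was that of CBX6, a chromodomain subunit, which read 5.97 and 6.20 in MCF10.AT1 and 5.22, 5.00 and 5.26 in MCF10.AT1-R, a difference of -0.93 (95% interval -1.54 to -0.32; limma, adjusted p = 0.143). EZH2, the methyltransferase of the complex, read 7.92 and 7.86 against 7.80, 7.63 and 7.99 and overlapped. Of the 22, 14 entered the fit and 8 were removed by the filter. None of the 22 was called, against 1.2% of all probe sets tested, and 3 of the 14 had an unadjusted p under 0.05 in limma, against 8.26%.

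The 16 Trithorax and MLL complex genes all lay above the controls on all 5 arrays. Their median difference was -0.04, from -0.54 for KMT2A, the MLL methyltransferase itself, to 0.52 for KDM6B, a demethylase that removes the Polycomb mark. Of the 16, 11 entered the fit. In all, 0 were called (limma, smallest adjusted p = 0.692), against 1.2% of all probe sets tested. An unadjusted p under 0.05 in limma was found for 0, against 8.26%.

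**Figure D3:**
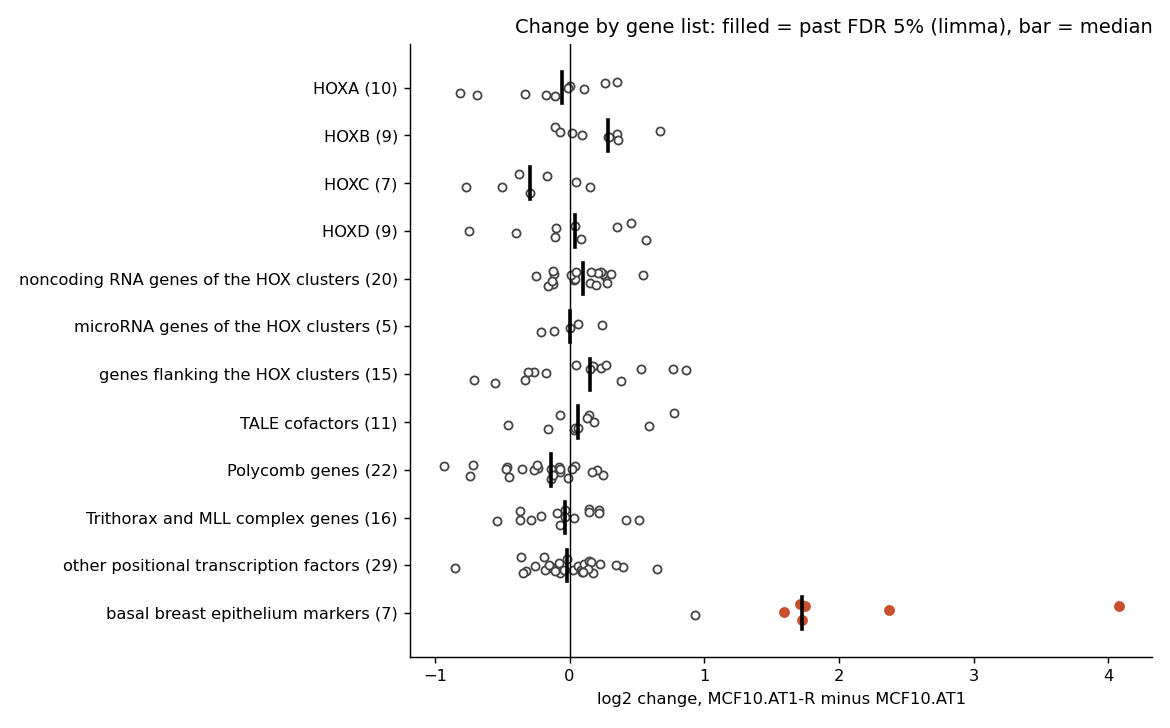
Log2 difference, MCF10.AT1-R minus MCF10.AT1 (x axis), of each gene of the HOX clusters, of the lists of cofactors, regulators, neighbours and other positional factors and of the basal epithelial markers (rows, number of genes in brackets); bars are medians and filled points passed FDR 5% in limma. Filled points appear for 6 of the 7 basal markers and in no other row drawn; the other marker lists, some of whose genes were called, are not drawn.

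Of the noncoding RNA genes of the clusters, a list that also holds the small genes PRAC1 and PRAC2, 20 of 21 were matched and LINC02381 was not. On all 5 arrays 7 were above the controls, and 11 were above them on none. HOTAIRM1, transcribed from the anterior end of the HOXA cluster beside HOXA2, read 6.39 and 6.16 in MCF10.AT1 and 6.51, 6.59 and 6.47 in MCF10.AT1-R. Its difference of 0.25 (95% interval -0.18 to 0.68; fit with no filter) did not pass the test. HOXA2 itself was above the controls on no array. HOXA10-AS had the largest difference of the list, 0.55, reading 3.25 and 3.35 against 3.72, 3.65 and 4.18, while HOXA10 on the opposite strand was lower on the mean. HOTAIR, HOTTIP and HAGLR, the best known regulatory RNAs of the HOXC, HOXA and HOXD clusters, were above the controls on none of the 5 arrays. Of the 20, 13 entered the fit and 0 were called, against 1.2% of all probe sets tested. An unadjusted p under 0.05 in limma was found for 0, against 8.26%.

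Of 7 microRNA genes within the clusters 5 were matched, MIR10A and MIR196B not. Their mature forms from RefSeq follow where they show the relation between the clusters, with the seed, bases 2 to 8, in capitals. The miR-196 forms come from the HOXB, HOXC and HOXA clusters, share 1 seed and are known to target HOX transcripts, HOXB8 and HOXC8 among them; miR-3185 is shown as the one whose gene lay above the controls on all 5 arrays.
miR-196a-5p: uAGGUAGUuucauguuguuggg
miR-196b-5p: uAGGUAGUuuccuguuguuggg
miR-3185: aGAAGAAGgcggucggucugcgg

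MIR196A1 and MIR196A2, which both give the first of these sequences, were above the controls on none of the 5 arrays, as was MIR10B. MIR3185 read 6.47 and 6.46 in MCF10.AT1 and 6.34, 6.48 and 6.75 in MCF10.AT1-R, and MIR615 was above the controls on 1 array. Of the 5 genes, 2 entered the fit and 0 were called, against 1.2% of all probe sets tested. An unadjusted p under 0.05 in limma was found for 0, against 8.26%. The probe sets carry the name of the gene, and how far they read mature microRNA in total RNA is not known here.

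Genes flanking the clusters were measured as well. Of the 15 genes beside the clusters, with ATP5MC2 and LNPK under their older symbols ATP5G2 and KIAA1715, 11 were above the controls on all 5 arrays, and the median difference was 0.15. CALCOCO1, near HOXC, was higher in MCF10.AT1-R by 0.86 (limma, adjusted p = 0.220) and ATP5G2, also near HOXC, had a difference of -0.71 (adjusted p = 0.441), so that genes beside the same cluster lay on opposite sides. Of the 15, 11 entered the fit and 4 were removed by the filter. None was called, against 1.2% of all probe sets tested, and 3 of the 11 had an unadjusted p under 0.05 in limma, against 8.26%.

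Other transcription factors of position were set beside the HOX genes. Of 29, 12 were above the controls on all 5 arrays and 12 on none, and the median difference was -0.02. TBX3, which is required for the mammary gland to form, had the largest difference. It read 6.70 and 6.53 in MCF10.AT1 and 5.79, 5.57 and 5.95 in MCF10.AT1-R, a difference of -0.85 (95% interval -1.46 to -0.24) that did not pass the test (limma, adjusted p = 0.240). PITX1, a factor of the hindlimb, read 5.38 and 5.70 against 5.43, 5.83 and 5.83 and overlapped. None of the 29 was called, against 1.2% of all probe sets tested. Of the 23 that entered the fit, 1 (TBX3) had an unadjusted p under 0.05 in limma, against 8.26% of all probe sets tested, and of the 6 removed by the filter DLX5, which was above the controls on no array, had one in the fit without it.

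The array A03 was set beside the others. Of the 16 HOX genes above the controls on all 5 arrays, A03 lay below all 5 for 9 genes (42.8% of all symbols above the controls did so) and above all 5 for HOXA6, HOXD3 and HOXD11 (44.5%). The genes that passed both limits on all 5 arrays, HOXA3, HOXA5, HOXA7, HOXC8 and HOXC9, were all lower on A03, against 58.1% of the symbols that passed both. HOXA7 read 3.97, 1.62 below the mean of the 5 arrays. HOXA10, HOXB3 and HOXC13 read 2.72, 2.73 and 2.77, below the 95th percentile of the controls of A03 (3.15). The graded background on A03 reached 6.91, higher than any HOX gene on any array, and its part in these readings was not tested.

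**Figure D4:**
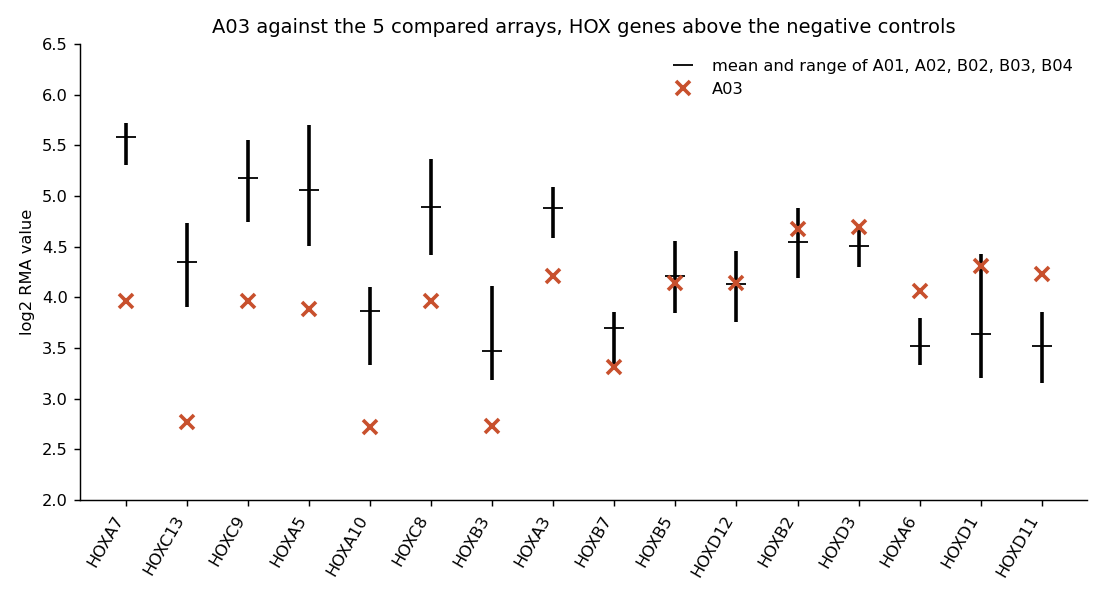
Log2 RMA value on A03 (crosses) beside the mean and range of the 5 compared arrays (bars) for the 16 HOX genes above the negative controls on all 5, ordered by the distance of A03 from the mean. A03 lies below the range for 9 genes and above it for HOXA6, HOXD3 and HOXD11.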

How the data were processed

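Clariom D arrays were hybridised with total RNA of both lines, 3 arrays each. The authors deposited log2 values made by RMA (background correction, quantile normalization, probe summary) from all 6 arrays; the genome build is not given in the sources used here. The line of each array was read from the legend of the study's principal component plot, and array names carry no replicate number. Labels call the arrays biological replicates, without saying whether cultures were separate, so p-values may measure technical spread.

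Of 138745 rows, 2995 control probe sets were left out of all comparisons. Probe sets with a mean over A01, A02, B02, B03 and B04 above 1.88 (the median) and an SD above 0.18 (the lowest 25%) were fitted with limma 3.58.1 in R 4.3.3 (lmFit, eBayes, two-sided, Benjamini-Hochberg, FDR 5%). Removing invariant probe sets led limma to a common SD of 0.34 for all probe sets. Intervals from this fit thus have the same width for every gene and do not follow the gene's own spread. Scripts were tested on simulated data. Genes removed by the filter were taken from a fit with no filter over 135750 probe sets, which called 0.13%. Per gene the probe set with the highest mean was used. Values on every array are given for HOX genes above the control percentile on every array of at least 1 line, for those whose difference is named as largest or smallest, and for the brightest or most changed member of each list; HOXA2, HOXC10, EZH2, PITX1, DLX5, COL1A1, COL1A2 and MIR615 were added after their values were seen. Some members stand in the counts and medians only and are otherwise not reported here. Members and lists were chosen with earlier results of these data known. Alternatives changed the arrays, filters, normalization, variance model, threshold, probe sets and detection limit.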

Additional observations from a re-analysis of the deposited data

Results flagged for a closer look

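HOXA4 read 3.81 on A03, the MCF10.AT1 array set aside, above the 95th percentile of that array's negative controls (3.15). On A01 and A02, the MCF10.AT1 arrays that were compared, it read 2.86 and 2.88, under their percentiles. In MCF10.AT1-R it read 2.34 on B02, under the percentile, and 3.14 and 3.15 on B03 and B04, above theirs (2.96 and 2.95). It was noted because A03 entered no comparison other than the alternative with all 6 arrays. The brightest graded background probe set on A03 read 6.91, and the part of this background in the HOXA4 value was not tested.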

How the results depend on the processing

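No HOX gene was called in any of the 16 alternative fits, or at FDR 10%. No paired analysis was possible because the array names carry no replicate number of the labels, so no pairing or block could be set. In each fit that left out an MCF10.AT1 array, the lone array of that line was assumed to vary like the other group. With A03 counted as MCF10.AT1, the HOXC median was 0.090, 2 HOX genes were higher and 3 lower without overlap, and the differences changed sign for HOXA6 (-0.10), HOXA7 (0.53), HOXA10 (0.12), HOXB7 (0.043), HOXC6 (0.090), HOXC8 (0.073), HOXC9 (0.10) and HOXD3 (-0.030). Values raised to the control percentile gave a HOXC median of 0 and 2 higher genes. At the 99th percentile of the controls 4 HOX genes were above on all arrays and 7 on every array of at least 1 line; above the graded background, chosen after seeing the data, 5 and 6. Array weights turned HOXA7 to 0.018, and the mean of all probe sets turned HOXD3 to -0.025. Leaving out each array in turn gave HOXD medians from -0.14 (without B04) to 0.17, 6 to 9 genes higher and 7 to 11 lower without overlap, and ranges that crossed 0 for HOXA6 (-0.013 to 0.23), HOXA7 (-0.082 to 0.13), HOXB2 (-0.14 to 0.32), HOXB7 (-0.21 to 0.053), HOXC13 (-0.36 to 0.46), HOXD3 (-0.14 to 0.23) and HOXD11 (-0.37 to 0.17). The shares of all symbols without overlap are not given for these sets of arrays, so those counts cannot be set against them. The cause of these changes was not tested. Over the 20 HOX genes followed, direction was kept in 88 of 100 values with an array left out. Signal near the background limits what can be read from most HOX genes.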
